A study of Mus musculus with 6 samples.

Results

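The genes described here were 45 interferon-stimulated and antigen-processing genes of the mouse, taken by symbol from the interferon pathway. All 45 were among the 29469 genes with any count in the series, and 37 of them were among the 16745 genes tested. Their RNA was measured by stranded sequencing of poly(A) RNA in P0 (newborn) hippocampi of 3 *Mov10* Deletion and 3 wild-type (WT) libraries, each made from the pooled hippocampi of several pups. *Mov10* Deletion pups combined a conditional *Mov10* allele, cut by Cre recombinase from the *Emx1* locus, with a germline mutant *Mov10* allele, while WT pups of the C57BL/6 background carried neither. *Emx1-Cre* acts in the cells that give rise to excitatory neurons of the neocortex and hippocampus, so microglia and cells of blood vessels lie outside its reach and carry only the germline mutation. The sex of the pups was not given. MOV10 is an RNA helicase known for its part in microRNA-mediated silencing and in the restriction of retroelements.

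Interferons are secreted proteins that cells release when they sense foreign or misplaced nucleic acid. They bind receptors that act through the JAK kinases on STAT proteins, and a factor that holds STAT2 and IRF9 binds the interferon-stimulated response element (ISRE) in the promoters of interferon-stimulated genes. Many of these genes keep a low tonic level without infection, and in brain tissue they are expressed in microglia and vessel cells as well as in neurons and glia. Antigen processing is a branch of the same programme, in which the immunoproteasome cuts proteins into peptides and the TAP transporter brings them to MHC class I molecules.

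The libraries held between 71400300 and 86207971 estimated counts. *Mov10* itself, which checks the labels, was at 2.45, 2.13 and 2.09 CPM (estimated counts scaled to library size, with TMM normalization) in the *Mov10* Deletion libraries and at 4.81, 4.75 and 4.80 CPM in the WT libraries, a log2 fold change of -1.11 (SE 0.10, limma-trend, adjusted p = 0.00115). Markers of hippocampal neurons were present in every library. Their summed CPM over 10 genes was 4598, 4711 and 4757 in *Mov10* Deletion and 4276, 4356 and 4437 in WT, which did not overlap. Of the 10 genes 3 were called higher and 0 lower (30.0%), where 24.7% of all tested genes were called, 12.6% higher. Here and throughout, a gene was called when its adjusted p was under 0.05 in limma-trend with 2 factors of unwanted variation (RUVs) as covariates, where the Benjamini-Hochberg adjustment ran over the 16745 genes tested. In pooled tissue, fewer cells of a type and less RNA per cell cannot be told apart.

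At birth most of these genes were weakly expressed in both genotypes. On the TPM scale (transcript abundance corrected for length and library size) the mean over all 6 libraries was under 1 for 20 of the 45 genes, between 1 and 10 for 19 genes and at least 10 for 6 genes. The highest level was that of *Ifitm2*, a membrane protein that blocks virus entry, with 202.0 ± 4.53 TPM in *Mov10* Deletion and 194.0 ± 2.23 TPM in WT (SD, n = 3 each). *Irf3*, the transcription factor activated by nucleic acid sensors, followed with 36.4 ± 6.97 TPM in *Mov10* Deletion and 30.6 ± 6.08 TPM in WT (SD, n = 3 each). *Stat2* (26.8 ± 0.969 TPM in *Mov10* Deletion and 19.2 ± 2.44 TPM in WT), *Ifitm3*, *Cmpk2* and *Irf9* came next. Of the signalling factors, *Irf3*, *Stat2* and *Irf9* were thus among the 6 highest genes, while *Irf7*, which interferon induces, was at 0.615 ± 0.177 TPM in *Mov10* Deletion and 1.21 ± 0.278 TPM in WT (SD, n = 3 each).

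**Figure D1:**
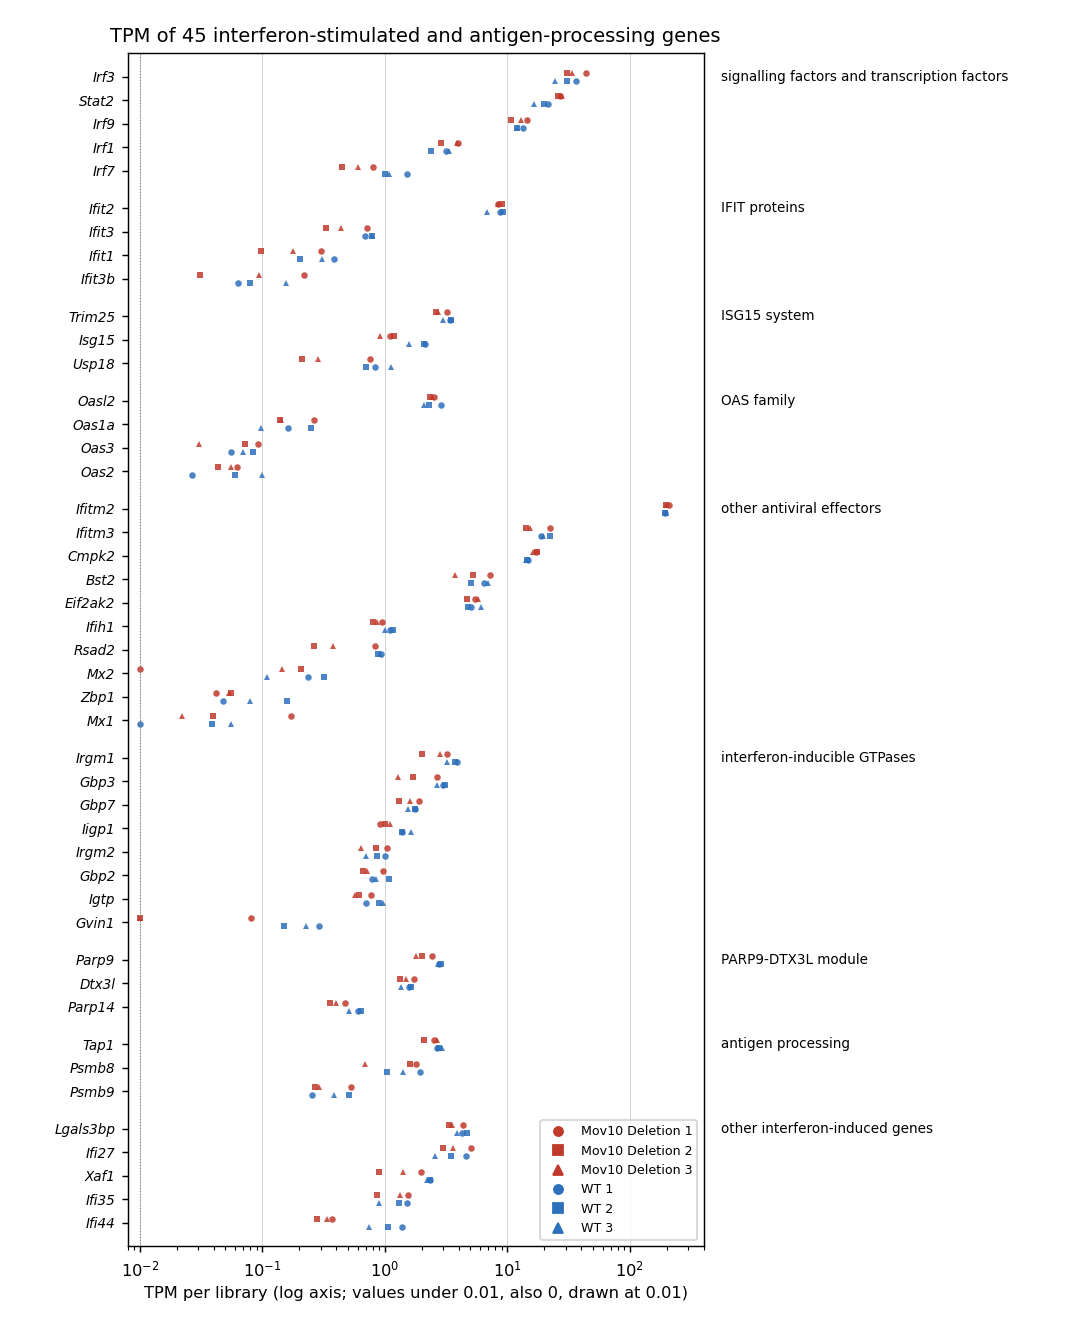
TPM of the 45 genes in each library on a log axis (x), grouped by role and ordered by level within a role (y), with *Mov10* Deletion libraries in red above WT libraries in blue (circle, library 1; square, library 2; triangle, library 3). *Ifitm2* lies near 200 TPM, 20 genes lie under a mean of 1 TPM, and in *Gvin1* Deletion libraries 2 and 3 are at 0 (drawn at 0.01).

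For 8 genes the RNA was too scarce to be tested (under 0.25 CPM in more than 3 libraries). These were *Ifit3b*, the antiviral oligoadenylate synthetases *Oas1a*, *Oas2* and *Oas3*, the dynamin-like GTPases *Mx1* and *Mx2*, the Z-nucleic acid sensor *Zbp1* and the immunoproteasome subunit *Psmb9*. Each had between 0 and 25 estimated counts in a library. Summed over the 8 genes, the libraries held 1.17, 0.88 and 0.829 CPM in *Mov10* Deletion against 0.886, 1.41 and 1.17 CPM in WT. These sums overlapped. Gene by gene the groups overlapped in 7 of the 8. In *Zbp1* the libraries held 0.049, 0.0786 and 0.07 CPM in *Mov10* Deletion and 0.0813, 0.185 and 0.143 CPM in WT, from 4 to 6 counts in a Deletion library and 7 to 14 in a WT library, and the groups did not overlap. Of the 37 tested genes, 34 reached 0.25 CPM in all 6 libraries. The exceptions were *Usp18* and *Gvin1*, which reached it in 1 Deletion library and 3 WT libraries and so passed through the group where they were higher, and *Ifit1*, which reached it in 1 Deletion library and 2 WT libraries.

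The question put to the tested genes was whether the interferon programme differed between *Mov10* Deletion and WT hippocampi. *Stat2* and *Cmpk2* were called higher in *Mov10* Deletion, 10 genes were called lower (*Irf7*, *Isg15*, *Trim25*, *Rsad2*, *Gbp3*, *Gvin1*, *Irgm1*, *Iigp1*, *Parp14* and *Ifi44*), and 25 genes were not called. Over all tested genes 24.7% were called, 12.6% higher and 12.1% lower. The called share was thus 32.4% for the interferon genes, with lower calls above and higher calls below the background. The log2 fold change was negative for 30 of the 37 genes and positive for 7, with a median of -0.25, where the median of all tested genes was 0.006. All 3 *Mov10* Deletion libraries lay below all 3 WT libraries for 12 genes and above them for 2 genes. Of all tested genes 41.6% had groups that did not overlap, 21.2% with *Mov10* Deletion below and 20.4% above WT. These counts and those by level below include *Gvin1*, which passed the filter through the WT group and shares nearly all of its sequence with other genes. Its lower call therefore adds no support to them. The negative log2 fold changes also include *Usp18*, which passed the filter in the same way.

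**Figure D2:**
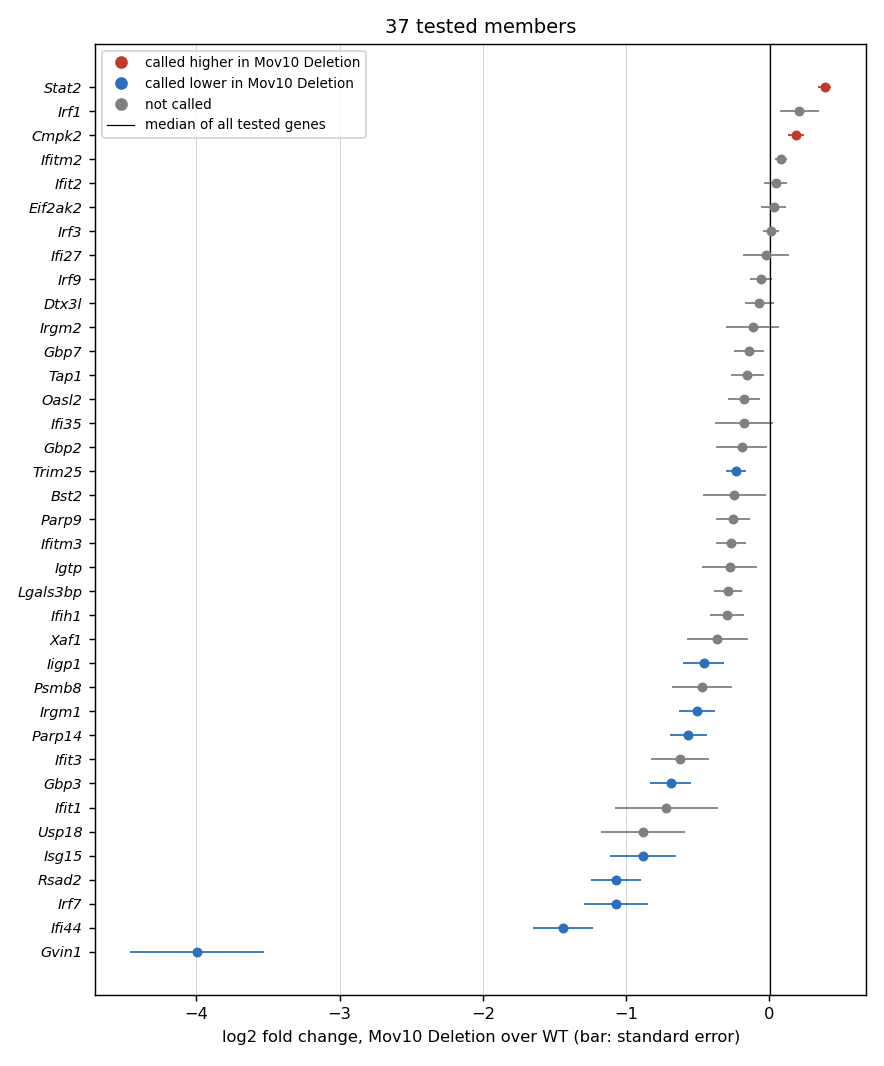
Log2 ratio of *Mov10* Deletion to WT (x) with a bar for the standard error, for the 37 tested genes ordered by value (y). The 2 genes called higher are red, the 10 called lower are blue and the 25 not called are grey; *Gvin1*, at -3.99, shares nearly all of its sequence with other genes.

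The calls were also counted by level, in classes chosen after the values were seen. Among the 18 tested genes with a mean under 2 CPM, 7 were called lower and 0 higher, with a median log2 fold change of -0.52, while 10.1% of all 3407 tested genes at that level were called, 2.2% lower and 7.9% higher. Among the 12 genes from 2 to under 10 CPM, 3 were called lower and 0 higher (median -0.24), where 23.1% of 2986 genes were called, 6.2% lower and 16.9% higher. Of the 7 genes at 10 CPM or more, *Stat2* and *Cmpk2* were higher and 0 lower (median 0.043), where 30.0% of 10352 genes were called, 12.9% higher and 17.1% lower. The list as a sum did not separate the genotypes. The summed CPM of the 45 genes was 224.6, 203.9 and 209.3 in *Mov10* Deletion and 213.8, 209.5 and 202.4 in WT, and the groups overlapped. This sum is carried mostly by the 7 genes at 10 CPM or more, such as *Ifitm2* (mean 39.5 CPM) and *Stat2* (33.1 CPM). It says little about the weaker genes, where all the lower calls lie.

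The promoters of these genes carried the response element in a larger share than promoters at large. In the RefSeq promoter table (250 bases before to 50 after a start, build GRCm38.p6, an older build than that of the counts) 35 of the 45 genes had an entry. The ISRE core, here GAAA and a further GAAA with any 2 bases between them, was found on either strand in 19 of the 35, or 54.3% (95% Wilson interval 38.2 to 69.5%), and in 3.99% of the 27025 genes of the table. By outcome, the ISRE core was present in 4 of 7 promoters of genes called lower, in 1 of 2 of genes called higher, in 11 of 22 of genes not called and in 3 of 4 of genes not tested. A second word (GAS), TTC and GAA with any 3 bases between them, was in 11 of the 35 (31.4%) and in 9.55% of the genes of the table. By outcome it was in 0 of 7 promoters of genes called lower, 0 of 2 called higher, 10 of 22 not called and 1 of 4 not tested. The stretches below, each 30 bases that end before the start of the gene, show the core in promoters of called genes, 4 lower (*Isg15*, *Rsad2*, *Gbp3*, *Irgm1*) and 1 higher (*Stat2*). Each is written 5′ to 3′ on the strand of its gene with matches in capitals, and the core reads as TTTC, any 2 bases and TTTC where it lies on the other strand.
Isg15 chr4:156200871-156200900 (minus): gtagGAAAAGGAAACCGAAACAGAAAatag
Rsad2 chr12:26456547-26456576 (minus): caacTTTCATTTTCagaaaacagaaactct
Gbp3 chr3:142559995-142560024 (plus): acagTTTCAGTTTCTATTTCccagatccct
Irgm1 chr11:48871425-48871454 (minus): tcaaGAAATAGAAACCGAAActgattctca
Stat2 chr10:128270272-128270301 (plus): ctggTTTCAGTTTCctttccctagaactca
*Isg15* holds 3 overlapping matches, *Gbp3* and *Irgm1* hold 2 each, and *Rsad2* and *Stat2* hold 1. No match was found in the windows of *Irf7*, *Ifi44*, *Cmpk2* and *Trim25*. A match is a description of the letters and not of a bound site.

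Among the transcription factors of the pathway, *Stat2* rose and *Irf7* fell. *Stat2* (ENSMUSG00000040033.19, chromosome 10, 128106352 to 128128735, GRCm39, as for the gene positions that follow) encodes the STAT that carries the type I interferon signal with IRF9. It was at 38.4, 36.7 and 39 CPM in *Mov10* Deletion and at 30.1, 28.9 and 25.8 CPM in WT. All 3 Deletion libraries lay above all WT libraries, a 1.31-fold difference (log2 fold change 0.39, SE 0.05, limma-trend, adjusted p = 0.0024). Its coding transcript *Stat2-201* carried 89.7% of the gene's counts, with 2831.7, 2483.0 and 2508.2 estimated counts in *Mov10* Deletion and 2319.6, 1948.7 and 1800.2 in WT. The remainder fell on transcripts with retained introns.

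*Irf7* (ENSMUSG00000025498.17, chromosome 7, 140842619 to 140846398) encodes the factor that amplifies interferon production and is itself induced by interferon. It was at 0.820, 0.393 and 0.644 CPM in *Mov10* Deletion and at 1.42, 1.06 and 1.2 CPM in WT, from 30 to 67 estimated counts in a Deletion library and 80 to 122 in a WT library. The groups did not overlap, and the second Deletion library was the lowest. The log2 fold change was -1.07 (SE 0.22, limma-trend, adjusted p = 0.0136). *Irf3* was at 18.7, 16.3 and 17.0 CPM in *Mov10* Deletion and 18.0, 17.2 and 13.7 CPM in WT, *Irf9* at 17.0, 14.3 and 16.4 CPM in *Mov10* Deletion and 17.5, 15.3 and 15.7 CPM in WT, and both overlapped between the groups (limma-trend, adjusted p = 0.906 and 0.592). *Irf1*, the factor most closely tied to interferon gamma, was not called either (log2 fold change 0.21, SE 0.14, limma-trend, adjusted p = 0.289).

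The ISG15 system, in which a ubiquitin-like protein is attached to other proteins, had 2 of 3 genes called lower, *Isg15* and *Trim25*. Over all tested genes 24.7% were called, 12.1% lower. The call of *Trim25* held in 4 of 18 alternatives only, as given below. *Isg15* (ENSMUSG00000035692.9, chromosome 4, 156283883 to 156285303), the modifier itself, was at 0.355, 0.393 and 0.294 CPM in *Mov10* Deletion and 0.674, 0.688 and 0.533 CPM in WT. Every Deletion library lay below every WT library, with 21 to 30 counts in a Deletion library and 41 to 58 in a WT library. It had a log2 fold change of -0.88 (SE 0.23, limma-trend, adjusted p = 0.0295), and the call was lost without Deletion library 3 (adjusted p = 0.0501), WT library 1 (0.054) or WT library 2 (0.0654), over a range of 0.0124 to 0.102 in its alternatives. *Usp18*, which removes ISG15 and restrains the interferon receptor, was at 0.551, 0.17 and 0.224 CPM in *Mov10* Deletion and 0.523, 0.410 and 0.806 CPM in WT. Its groups overlapped through the first Deletion library, and its log2 fold change of -0.88 (SE 0.29) was not called (limma-trend, adjusted p = 0.0623). Without that library *Usp18* was called (limma-trend, adjusted p = 0.0110). In that fit it passed the filter through the WT libraries alone, so this call adds no support.

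*Trim25*, the ubiquitin ligase that activates the RNA sensor RIG-I, was at 8.42, 7.02 and 7.08 CPM in *Mov10* Deletion and 8.87, 8.77 and 8.09 CPM in WT. The first Deletion library lay among the WT libraries. The log2 fold change of -0.23 (SE 0.07) was called (limma-trend, adjusted p = 0.0444) but passed in 4 of 18 alternatives only, over which the adjusted p ranged from 0.0166 to 0.182 (0.158 without factors of unwanted variation). It was lost without Deletion library 2 (0.067) or 3 (0.0934) and without WT library 1 (0.149) or 2 (0.144).

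Of the IFIT genes, whose proteins bind foreign RNA, 0 of 3 tested were called, where 24.7% of all tested genes were. *Ifit2*, the highest of them in TPM, was at 12.8, 12.9 and 12.8 CPM in *Mov10* Deletion and 12.3, 13.4 and 10.8 CPM in WT, with overlapping groups (log2 fold change 0.043, SE 0.08, limma-trend, adjusted p = 0.713). *Ifit3* shares 36.1% of its 75-base words with *Ifit3b*, so reads of the pair are divided by estimate. It was at 0.625, 0.297 and 0.376 CPM in *Mov10* Deletion and 0.580, 0.680 and 0.707 CPM in WT. The first Deletion library was again the high one of its group and lay among the WT libraries. It was not called (log2 fold change -0.62, SE 0.205, limma-trend, adjusted p = 0.06). The sum of the pair was 0.832, 0.327 and 0.462 CPM in *Mov10* Deletion and 0.639, 0.754 and 0.859 CPM in WT, which overlapped. *Ifit1*, at 8 to 34 counts, had a log2 fold change of -0.72 (SE 0.36, limma-trend, adjusted p = 0.177). In the OAS family only *Oasl2*, an oligoadenylate synthetase-like protein, was tested, and it was not called (log2 fold change -0.18, SE 0.11, limma-trend, adjusted p = 0.283).

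Among the other antiviral effectors, a pair of neighbouring genes was called in opposite directions. *Rsad2* (ENSMUSG00000020641.18, chromosome 12, 26492745 to 26506451, minus strand) encodes viperin, an enzyme that converts CTP to a chain-terminating nucleotide. *Cmpk2* (ENSMUSG00000020638.10, chromosome 12, 26519203 to 26529836, plus strand) encodes a mitochondrial nucleotide kinase and starts 12751 bases away in the other orientation. *Rsad2* was at 1.27, 0.406 and 0.560 CPM in *Mov10* Deletion and 1.38, 1.31 and 1.4 CPM in WT. All 3 Deletion libraries lay below WT, but library 1 did so by a small margin while libraries 2 and 3 were well apart. The log2 fold change was -1.07 (SE 0.17, limma-trend, adjusted p = 0.00586), and without the factors it was not called (adjusted p = 0.0596, range 0.000418 to 0.101 over its alternatives).

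*Cmpk2* was at 21.9, 23.2 and 21.3 CPM in *Mov10* Deletion and 19.3, 19.5 and 19.7 CPM in WT. The groups did not overlap, and the difference was small, 1.14-fold (log2 fold change 0.19, SE 0.05, limma-trend, adjusted p = 0.0408). Leaving out Deletion library 2 (adjusted p = 0.0506), WT library 1 (0.0838) or WT library 2 (0.113) lost the call, within a range of 0.0213 to 0.113. At the gene level *Cmpk2* held 1473.7 estimated counts or more in each library, while *Rsad2* held 31 to 119.

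*Ifitm2* was at 40.4, 41.4 and 39.7 CPM in *Mov10* Deletion and 38.2, 37.7 and 39.8 CPM in WT, and *Eif2ak2*, the double-stranded RNA kinase PKR, at 10.7, 8.92 and 10.8 CPM in *Mov10* Deletion and 9.91, 9.44 and 10.9 CPM in WT. Both overlapped between the groups and were not called (limma-trend, adjusted p = 0.210 and 0.828). *Ifih1*, the RNA sensor MDA5, was at 2.03, 1.81 and 1.98 CPM in *Mov10* Deletion and 2.46, 2.35 and 2.09 CPM in WT. Its groups did not overlap, yet its log2 fold change of -0.29 (SE 0.12) was not called (limma-trend, adjusted p = 0.111). *Ifitm2* shares 26.8% of its 75-base words with other genes, so its estimate is uncertain to that extent. *Bst2* (tetherin) and *Ifitm3* had log2 fold changes of -0.25 and -0.27 and were not called. *Ifitm3* was called without the first Deletion library (limma-trend, adjusted p = 0.0241).

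The interferon-inducible GTPases, which attack the vacuoles of intracellular pathogens, had 4 of 8 genes called lower. Over all tested genes 24.7% were called, 12.1% lower. The 4 genes were *Gbp3*, *Irgm1*, *Iigp1* and *Gvin1*. Of these *Gvin1* passed the filter through the WT group, so its lower call adds no support to this count. All 8 were tested, all 8 log2 fold changes were negative (median -0.37), and 0 were called higher. Their summed level was 15.11, 10.71 and 11.48 CPM in *Mov10* Deletion and 16.61, 16.33 and 15.57 CPM in WT. Every Deletion library lay below every WT library, the first by the smallest margin, but this rested on *Gvin1*, whose reads are uncertain as described below. Without it (a sum chosen after seeing the data) the level was 14.8, 10.7 and 11.5 CPM in *Mov10* Deletion and 15.5, 15.8 and 14.7 CPM in WT, and the groups overlapped through the first Deletion library.

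*Gbp3* (ENSMUSG00000028268.16, chromosome 3, 142265731 to 142278979), a guanylate-binding protein, was at 2.76, 1.93 and 1.60 CPM in *Mov10* Deletion and 3.33, 3.20 and 3.02 CPM in WT. The groups did not overlap (log2 fold change -0.69, SE 0.14, limma-trend, adjusted p = 0.0131). *Gbp2* and *Gbp7*, in the same cluster, were at -0.19 and -0.14 on the log2 scale and were not called. The cluster lies on the chromosome of *Mov10*, 37.5 to 37.6 Mb from it.

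*Irgm1* (ENSMUSG00000046879.9, chromosome 11, 48752795 to 48763164), a regulator of the immunity-related GTPases and of autophagy, was at 3.16, 2.02 and 2.75 CPM in *Mov10* Deletion and 3.76, 3.65 and 3.20 CPM in WT. The highest Deletion library lay just under the lowest WT library. Its log2 fold change of -0.50 (SE 0.125, limma-trend, adjusted p = 0.0246) was not called without factors (adjusted p = 0.0826, range 0.00352 to 0.0923). *Iigp1*, an effector GTPase that is loaded onto parasite vacuoles, was at 1.02, 1.15 and 1.15 CPM in *Mov10* Deletion and 1.46, 1.52 and 1.87 CPM in WT. The groups were well apart, and here the first Deletion library was the lowest. Its log2 fold change was -0.46 (SE 0.14, limma-trend, adjusted p = 0.0495). It passed in 9 of 18 alternatives (range 0.0343 to 0.108) and was lost without Deletion library 1 (0.0841) or 3 (0.0752) and without WT library 2 (0.101) or 3 (0.0854). *Irgm2* and *Igtp*, whose annotated spans overlap on the same strand, were not called (log2 fold changes -0.12 and -0.28).

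*Gvin1*, a very large GTPase, had the widest difference of the list and the least certain one. It was at 0.319, 0 and 0 CPM in *Mov10* Deletion and 1.08, 0.561 and 0.893 CPM in WT, which gave a log2 fold change of -3.99 (SE 0.47, limma-trend, adjusted p = 0.00212). The size of this value depends on the prior count added before taking logs, and it was -5.41 with a prior count of 0.5 and -1.45 on the log2(TPM + 0.1) scale. Of the 75-base words of its most abundant transcript, 98.3% also occur in transcripts of 9 other genes, 97.4% in *Gvin2*. *Gvin2* ran the other way, with 0.996, 1.01 and 1.09 CPM in *Mov10* Deletion and 0.478, 0.972 and 0.368 CPM in WT (log2 fold change 0.77, SE 0.33, limma-trend, adjusted p = 0.129).

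The sum of *Gvin1* and *Gvin2* was 1.32, 1.01 and 1.09 CPM in *Mov10* Deletion and 1.56, 1.53 and 1.26 CPM in WT, so the groups overlapped. Over *Gvin1* and all 9 genes that share its words the sum was 2.13, 1.93 and 1.98 CPM in *Mov10* Deletion and 2.49, 2.50 and 2.29 CPM in WT. Here the groups did not overlap, and *Mov10* Deletion averaged 2.01 ± 0.106 CPM, against 2.43 ± 0.12 CPM for WT (SD, n = 3 each), a ratio of 0.828. The family as a whole thus differed far less than *Gvin1* alone. How many of its reads came from *Gvin1* itself cannot be told apart from these estimates.

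**Figure D3:**
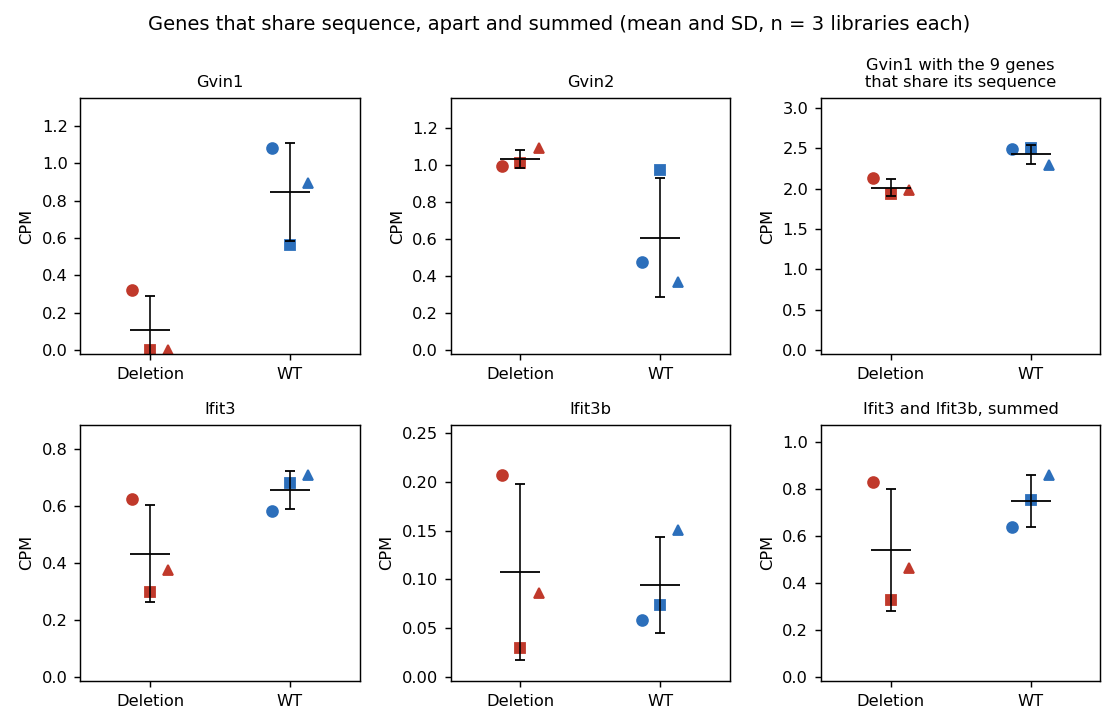
CPM (y) of *Gvin1*, *Gvin2* and the sum of the 10 genes of the family (upper row) and of *Ifit3*, *Ifit3b* and their sum (lower row) in *Mov10* Deletion (red) and WT (blue) libraries (circle, library 1; square, library 2; triangle, library 3), where a bar gives the mean and its whisker the SD. *Gvin1* separates the groups widely, while the sum of 10 genes averages 2.01 CPM in *Mov10* Deletion, against 2.43 CPM in WT.

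PARP9 and DTX3L form a complex that modifies histones and viral proteins, and PARP14 is a large relative encoded beside them on chromosome 16. *Parp14* (ENSMUSG00000034422.16, 35653231 to 35692003) was at 1.76, 1.36 and 1.43 CPM in *Mov10* Deletion and 2.21, 2.34 and 1.98 CPM in WT. The groups did not overlap (log2 fold change -0.57, SE 0.13, limma-trend, adjusted p = 0.0178), and the call was lost without the second WT library (adjusted p = 0.0522, range 0.00806 to 0.126). *Parp9* (log2 fold change -0.25, SE 0.12) and *Dtx3l* (-0.069, SE 0.10), which overlap on opposite strands, were not called (limma-trend, adjusted p = 0.158 and 0.639).

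In the last set, *Ifi44* (ENSMUSG00000028037.15, chromosome 3, 151436559 to 151455625), a cytoplasmic protein induced by type I interferon, had the smallest adjusted p of the genes called lower after *Gvin1*. It was at 0.367, 0.275 and 0.322 CPM in *Mov10* Deletion and 1.02, 0.861 and 0.650 CPM in WT, or 21 to 30 counts in a Deletion library and 50 to 88 in a WT library. The groups were far apart, with a log2 fold change of -1.44 (SE 0.21, limma-trend, adjusted p = 0.00387), and it passed in 16 of 17 alternatives. *Ifi44* lies 46.7 Mb from *Mov10*. *Lgals3bp*, a secreted glycoprotein, was at 4.44, 3.93 and 4.04 CPM in *Mov10* Deletion and 4.90, 5.38 and 4.59 CPM in WT. Its groups did not overlap, and its log2 fold change of -0.29 (SE 0.095) was just not called (limma-trend, adjusted p = 0.0599). *Xaf1*, *Ifi35* and *Ifi27* had log2 fold changes of -0.36, -0.18 and -0.024 and were not called.

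**Figure D4:**
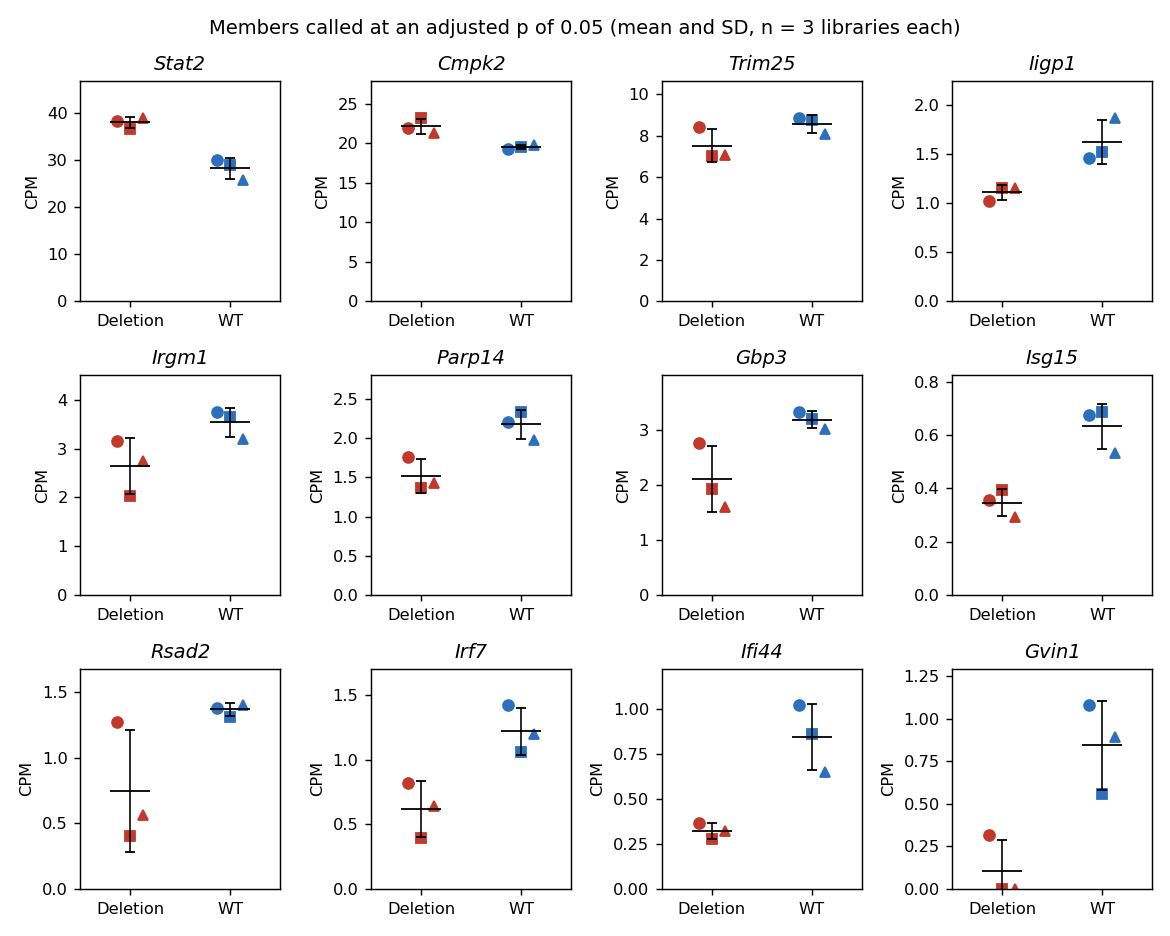
CPM (y, from 0) of the 12 called genes in *Mov10* Deletion (red, left) and WT (blue, right) libraries (circle, library 1; square, library 2; triangle, library 3), where a bar gives the mean and its whisker the SD (n = 3 each). *Stat2* and *Cmpk2* are higher in *Mov10* Deletion, the other 10 are lower, and *Trim25* alone overlaps between the groups.

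The antigen-processing genes of the list were not called. *Psmb8*, a catalytic subunit of the immunoproteasome, was at 0.747, 0.733 and 0.532 CPM in *Mov10* Deletion and 1.00, 0.833 and 0.898 CPM in WT. The groups did not overlap, but 38 to 86.1 counts in a library left a log2 fold change of -0.47 (SE 0.21, limma-trend, adjusted p = 0.136). *Tap1*, the peptide transporter subunit, was at 3.54, 3.06 and 3.85 CPM in *Mov10* Deletion and 3.83, 3.76 and 4.19 CPM in WT, and the groups overlapped (log2 fold change -0.15, SE 0.12, limma-trend, adjusted p = 0.366). *Psmb9*, which shares a promoter region with *Tap1*, was not tested.

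The next step of the pathway, the MHC class I molecules and their loading complex, was examined with 18 further genes that are not in the list. Of these 4 were lower and 1 higher, a called share of 27.8% against 24.7% of all tested genes, and the list ran both ways, with 10 log2 fold changes positive and 8 negative (median 0.066). *H2-D1*, a classical class I heavy chain, was at 19.4, 18.9 and 17.4 CPM in *Mov10* Deletion and 21.8, 23.1 and 24.3 CPM in WT (log2 fold change -0.29, SE 0.06, limma-trend, adjusted p = 0.0119). *H2-K1*, the other classical chain, was at 5.89, 4.90 and 4.83 CPM in *Mov10* Deletion and 6.64, 6.23 and 7.08 CPM in WT (-0.35, SE 0.09, adjusted p = 0.0278). In both genes every Deletion library lay below every WT library. The nonclassical *H2-T23* (-0.50, SE 0.14) and tapasin, *Tapbp* (-0.175, SE 0.05), were also lower (limma-trend, adjusted p = 0.0335 and 0.0414). *B2m*, the light chain, was at 23.1, 19.5 and 17.7 CPM in *Mov10* Deletion and 23.1, 23 and 21.6 CPM in WT, overlapped through the first Deletion library and was not called (-0.21, SE 0.07, limma-trend, adjusted p = 0.0511). The general chaperone *Calr* was higher (0.46, SE 0.04, limma-trend, adjusted p = 0.00115). Of the 4 lower genes *H2-D1* passed in 17 of 18 alternatives, *H2-T23* in 16, *H2-K1* in 15 and *Tapbp* in 11. *H2-K1* was lost without Deletion library 3 (adjusted p = 0.0641), and *Tapbp* without Deletion library 3 (0.0851) or WT library 2 (0.185). The class I heavy chain genes are close relatives, and how their reads were divided was not measured.

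**Figure D5:**
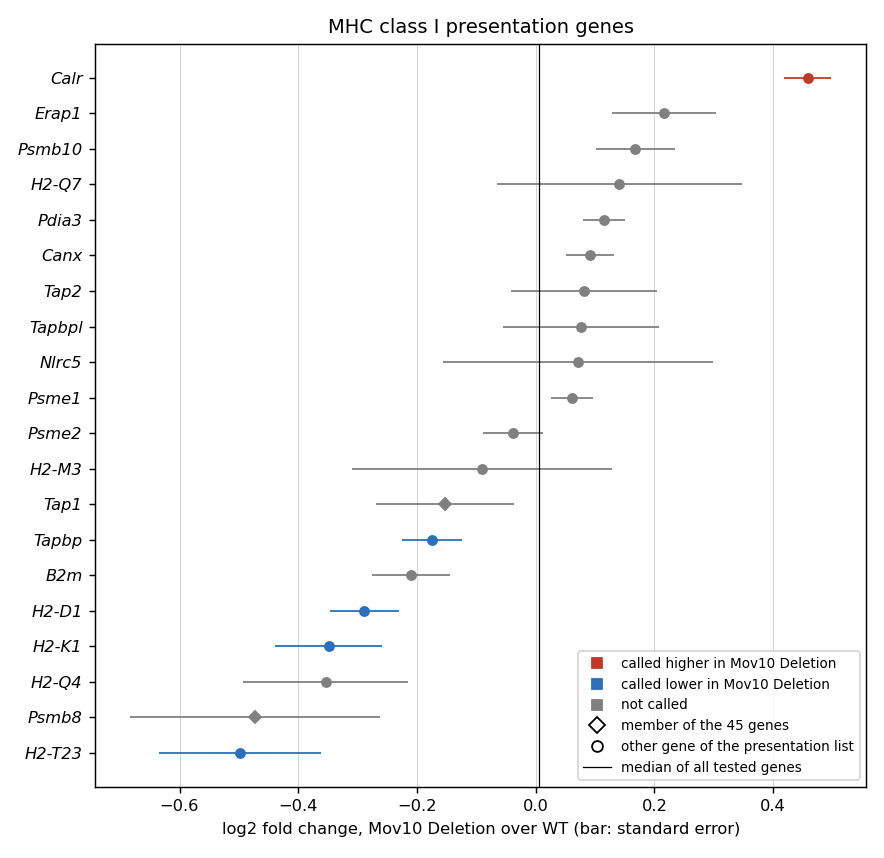
Log2 ratio of *Mov10* Deletion to WT (x) with a bar for the standard error, for 18 genes of MHC class I presentation (circles) and for *Tap1* and *Psmb8* (diamonds), ordered by value (y). *Calr* (red) was called higher and *H2-T23*, *H2-K1*, *H2-D1* and *Tapbp* (blue) lower; *Psmb8* and *B2m* lie on the same side and were not called.

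Around this output the rest of the pathway was described by counts. Of 12 interferon ligand genes 0 could be tested, 9 had 0 counts in all 6 libraries, and the highest total of any over all libraries was 5 counts, so no ligand RNA was detectable at this depth beyond those few counts. Of 13 tested receptor and JAK-STAT genes 0 were higher and 1 was lower, a called share of 7.69% against 24.7% of all tested genes. The lower gene was *Jak2*, a kinase of the interferon gamma receptor and of many other cytokine receptors. It was at 98.3, 106 and 109 CPM in *Mov10* Deletion and 126, 126 and 129 CPM in WT. Its groups were far apart (log2 fold change -0.27, SE 0.04, limma-trend, adjusted p = 0.0031) and it passed in all 18 alternatives.

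Of 15 genes of nucleic acid sensing 2 were called higher and 2 lower, a share of 26.7% near the 24.7% of all tested genes. The kinases *Tbk1* (log2 fold change 0.21) and *Ikbke* (0.63) were higher. The RNA sensor *Rigi* (-0.37) and the Toll receptor adaptor *Ticam1* (-0.33) were lower (limma-trend, adjusted p from 0.0219 to 0.0445 for these 4 genes). Of these *Rigi* kept its call whichever library was left out, *Tbk1* lost it without WT library 2 (0.0816), *Ikbke* without WT library 1 (0.05) or 2 (0.0571), and *Ticam1* without Deletion library 2 (0.0697) or WT library 1 (0.0539) or 2 (0.143). Among genes that clear or edit nucleic acids, *Samhd1* (0.21), a dNTP hydrolase, was higher. The DNA exonuclease *Trex1* (-0.44) and the histone methyltransferase *Setdb1* (-0.12) were lower (limma-trend, adjusted p from 0.0268 to 0.0421 for these 3 genes). *Samhd1* lost its call without Deletion library 1 (0.0598), *Trex1* without WT library 2 (0.0526) and *Setdb1* without WT library 1 (0.0972) or 2 (0.151).

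A second set of 54 interferon-stimulated genes outside the list had 37 tested, of which 4 were higher and 4 lower, with a median log2 fold change of -0.049. Lower genes were *Gbp5* (-0.83), *Ifi204* (-0.725), *Slfn5* (-0.70) and *Sp100* (-0.90), and higher genes were *Slfn9* (0.64), *Herc6* (0.53), *Mndal* (0.23) and *Parp11* (0.16), with adjusted p from 0.00198 to 0.0432 (limma-trend). Several belong to families of close relatives (the *Slfn* genes, and *Ifi204* with *Mndal*), so their division of reads is uncertain. Without WT library 2 the calls of *Gbp5* (0.0518), *Ifi204* (0.105), *Sp100* (0.121) and *Parp11* (0.177) were lost, without WT library 1 those of *Gbp5* (0.0527) and *Sp100* (0.0728), and without Deletion library 3 that of *Sp100* (0.0884). The called share, 21.6%, lay near the 24.7% of all genes. As a comparison for the immunoproteasome, 6 of 14 subunits of the constitutive proteasome were called lower and 0 higher, all 14 with negative log2 fold changes (median -0.11), a called share of 42.9%. Of the 6 calls 4 were lost without WT library 2 (*Psma3* 0.184, *Psma6* 0.0729, *Psmb4* 0.0724 and *Psmb6* 0.22), and 2 without Deletion library 3 (*Psma3* 0.0618 and *Psmb6* 0.0719). Over the 7 lists together, 9 of 107 tested genes were higher and 19 lower, a called share of 26.2% that lay near the background of 24.7%. The count of lower genes was 32 without the first Deletion library and 9 without the second WT library.

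The first *Mov10* Deletion library stood apart in these genes. It was the highest of the 3 Deletion libraries for 27 of the 37 tested interferon genes (73.0%), against 35.1% of all tested genes, and for 15 of the 18 with a mean under 2 CPM (83.3%), against 35.0% of all tested genes at that level. The same library was the highest of its group for 12 of 12 tested microglia and macrophage markers, as the second WT library was of its own group for 11 of the 12. That WT library was the highest of its group for 8 of the 37 tested interferon genes (21.6%), against 26.3% of all tested genes. Among those with a mean under 2 CPM it was the highest for 3 of 18 (16.7%), against 33.6% of all tested genes at that level. The summed CPM of the microglia and macrophage markers was 137.5, 99.98 and 102.7 in *Mov10* Deletion and 101.5, 128.4 and 103.0 in WT, which overlapped. Of the 12 markers 2 (*Mrc1* and *Cd68*) were called higher and 0 lower, a called share of 16.7% against 24.7% of all tested genes. Both calls were lost without the first Deletion library (limma-trend, adjusted p = 0.204 and 0.0593), and that of *Cd68* also without Deletion library 3 (0.0728), WT library 1 (0.0735) or WT library 3 (0.0547). Markers of choroid plexus and meninges summed to 314.5, 86.17 and 98.28 CPM in *Mov10* Deletion and 119.2, 122.9 and 124.4 CPM in WT, and those of vessels to 553.3, 469.7 and 478.2 CPM in *Mov10* Deletion and 501.4, 511.3 and 479.0 CPM in WT. Of 8 lymphocyte and granulocyte markers *Nkg7* and *Ly6g* were at 0 in every library, and only *Ptprc*, which all leukocytes and thus microglia express, exceeded 1 CPM (1.63, 1.64 and 1.75 CPM in *Mov10* Deletion and 1.41, 1.80 and 1.43 CPM in WT). Astrocyte and radial glia markers had 9 of 9 log2 fold changes positive and 3 called higher (33.3%), where 24.7% of all tested genes were called, 12.6% higher. Their summed CPM was 2083, 1987 and 2026 in *Mov10* Deletion and 1733, 1835 and 1608 in WT, which did not overlap. Erythroid markers had 6 of 6 negative and 3 called lower (median -0.33), with summed CPM of 295.1, 224.4 and 213.3 in *Mov10* Deletion and 309.1, 247.0 and 279.4 in WT, which overlapped. The part of these cell types in the differences of the interferon genes was not tested. Without the first Deletion library 14 of 36 tested interferon genes were called lower and 2 higher (limma-trend), where 15.2% of all tested genes were lower and 15.6% higher. The 14 include *Gvin1* and *Usp18*, which in that fit passed the filter through the WT libraries alone. Their calls therefore add no support to this count. *Ifit3*, *Usp18*, *Ifitm3*, *Parp9* and *Lgals3bp* joined and *Iigp1* dropped out.

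Calls held to different degrees when the processing was changed. The edgeR and DESeq2 tests were run without factors and the replicate block stood in place of them, so these alternatives differ in more than one respect. *Irf7* and *Stat2* passed in 17 of 18 alternatives, *Ifi44* in 16 of 17, *Gvin1* in 15 of 16, *Gbp3* in 16 of 18, *Parp14* in 15 and *Rsad2* in 14. *Irgm1*, *Cmpk2*, *Iigp1* and *Trim25* passed in 12, 11, 9 and 4 of 18, and *Isg15* in 12 of 16. All 12 missed the threshold when no filter on low counts was used (lowest adjusted p 0.0502, limma-trend), a setting under which 3.14% of 29469 genes were called. Without factors of unwanted variation 2 genes were called higher and 7 lower by limma-trend, where 11.0% of all tested genes were higher and 9.96% lower (21.0% in all). The edgeR quasi-likelihood test also called 2 higher and 7 lower, with 10.9% and 9.88% of all tested genes (20.8%). DESeq2 called 2 higher and 4 lower, with 11.9% and 12.1% of all tested genes (24.0%). With a filter at 1 CPM 27 of the genes were tested and 2 were called higher and 5 lower, where 13.5% and 12.7% of 14478 genes were (26.2%).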

How the data were processed

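The deposited files hold, per transcript and library, the estimated count and the TPM as the authors made them with Salmon 1.4.0 against the mouse transcriptome with the GRCm39 genome as decoy. The authors' estimated counts are not normalized, and the deposited TPM values are corrected for length and depth. Which annotation release they indexed is not stated in the sources used here. Estimated counts were summed per gene with GENCODE M39 (GRCm39), to which 137570 of 139225 transcripts matched; the others held 0.589 to 0.600% of the counts. Genes that reached 0.25 CPM in 3 or more libraries were tested with limma-trend (limma 3.58.1, edgeR 4.0.16, R 4.3.3) on TMM-normalized log2 CPM with a prior count of 2. The study names this filter, TMM, limma-trend and 2 factors from RUVSeq, but neither which of its functions nor the prior count. RUVs was written out in R, with genotypes as replicate sets and all tested genes as controls. The fit left 2 residual and 5.89 prior degrees of freedom. Its p-values measure only the spread between pools of pups that the factors left. Calls at low counts rest on few molecules, and replicates limit the precision.

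The members and all lists were chosen with earlier results of these data known, so no list was tested, and counts and medians are descriptions. Per-library values were given for members that were called, for tested members that did not overlap between groups or that averaged at least 10 CPM, and for others of note chosen after their values were seen. In related lists, up to 4 called genes with the smallest p were named, with further genes chosen after their values were seen, and some genes of these lists are not reported here. Of the symbols listed 3 did not match (*Skiv2l*, *Fcrls* and *Ahsp*). Shared sequence was measured as 75-base words of a gene's transcript found in transcripts of other genes. The scripts of the tests were run on simulated data. Alternatives were no factors, 1 RUVs factor, 2 RUVg factors, edgeR's quasi-likelihood test and DESeq2 1.42.0 on rounded counts without factors, upper-quartile and DESeq2 normalization, no filter, a filter at 1 CPM, a prior count of 0.5, log2(TPM + 0.1), a replicate block and leaving out each library.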

Additional observations from a re-analysis of the deposited data

How the results depend on the processing

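Of 649 log2 fold changes of single members under 18 alternatives, 549 kept their direction and their side of the threshold, 53 kept the direction but were no longer called, 16 became called and 31 changed sign, all 31 in members that were not called. Members called higher numbered 1 with 2 RUVg factors, 1 on the log2(TPM + 0.1) scale, 1 with a replicate block in place of the factors and 0 with no filter, and between 1 and 2 when 1 library was left out. Members called lower numbered 4 with DESeq2 (which gave no adjusted p for *Isg15*, *Gvin1*, *Ifit1* and *Usp18*), 5 of 27 tested with a filter at 1 CPM, 0 with no filter and 8 with the replicate block, and between 7 and 14 when 1 library was left out. The 14 include *Gvin1* and *Usp18*, which in that fit passed the filter through the WT libraries alone. With no filter 45 members were tested by limma-trend, 2 higher and 12 lower had an unadjusted p under 0.05, and the lowest adjusted p was 0.0502. The labels do not say whether the replicate numbers pair the libraries. Deviations from the group means correlated at 0.0114, -0.0711 and 0.0432 for same-numbered libraries and at -0.095 to 0.103 for the others. Deviations of 3 libraries from their own mean are tied to each other, so these values cannot decide it. The median log2 fold change of the tested members ranged from -0.335 to -0.185. In the related lists 2 genes were higher and 3 lower with no filter, 5 and 9 on the log2(TPM + 0.1) scale, and 7 to 12 and 9 to 32 when 1 library was left out. The ISRE core was in 31.4% of member promoters on the gene strand alone. Sign changes outside left-out libraries were those of *Eif2ak2* (-0.004 with 1 RUVs factor, -0.005 with no filter), *Irgm2* (0.013 with edgeR, 0.010 with DESeq2) and *Ifi27* (0.091 with no factors, 0.046 with 1 RUVs factor, 0.025 with 2 RUVg factors, 0.1 with edgeR, 0.098 with DESeq2, 0.083 with no filter, 0.009 with a filter at 1 CPM, 0.091 with the replicate block). When 1 library was left out the log2 fold change ranged from -0.033 to 0.15 for *Irf3*, -0.104 to 0.027 for *Irf9*, -0.002 to 0.116 for *Ifit2*, -0.437 to 0.003 for *Bst2*, -0.020 to 0.134 for *Eif2ak2*, -0.258 to 0.003 for *Gbp7*, -0.248 to 0.058 for *Irgm2*, -0.147 to 0.001 for *Dtx3l*, -0.157 to 0.151 for *Ifi27* and -0.292 to 0.059 for *Ifi35*. The causes were not tested. Genes under 1 CPM rest on few counts, which limits every statement on them.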
